A study of Mus musculus with 2 samples.

Results

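The nuclear factor I (NFI) family consists of the genes Nfia, Nfib, Nfic and Nfix, and all 4 were taken by name from the 21938 protein-coding genes of GENCODE M21. NFI proteins bind DNA as dimers, and their full site is a palindrome of TTGGC and GCCAA separated by 5 bases, while a single arm such as TTGGCA can also be bound. In the developing forebrain Nfia, Nfib and Nfix are known for the switch of neural progenitors towards glia, for astrocyte maturation and for the growth of the corpus callosum and hippocampus, and Nfic is best known for tooth root formation. In DNase-seq the cut sites of the enzyme DNase I in chromatin are sequenced, so a peak marks accessible DNA, and a footprint is a short stretch inside accessible DNA that was cut less than its surroundings. Male B6CASTF1/J mice, F1 hybrids of the strains C57BL/6J and CAST/EiJ, gave right cerebral cortex at 2 months of age, in 1 group with 2 libraries labelled as biological replicates. Positions refer to mm10, an assembly of C57BL/6J, and the alleles of the parental strains were not told apart. Both libraries come from whole tissue, so a low peak in all cells and a high peak in few cells cannot be told apart.

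Replicate 1 had 91818 strict peaks (the smaller of its deposited peak sets) and replicate 2 had 75245, a ratio of 1.22, and their footprints numbered 394531 and 241645. The height of a peak is the authors' signal value, with a median of 0.932 in replicate 1 and 0.806 in replicate 2. Promoter peaks at markers of cortical cells were looked up beside the label. A promoter peak, within 1000 bp of a transcript start, was found in replicates 1 and 2 at 7 and 5 of 8 excitatory neuron markers, at 6 and 5 of 8 astrocyte markers, at 3 and 3 of 8 inhibitory neuron markers, at 3 and 3 of 8 oligodendrocyte markers and at 3 and 2 of 6 endothelial markers. Camk2a (3.59 and 2.62) had the tallest promoter peak among the excitatory markers, and Sox9 (2.11 and 1.51) and Gfap (2.02 and 1.14) among the astrocyte markers. The tallest of the other lists were Adarb2 (1.45 and 1.29) and Gad1 (1.11 and 1.11), Mbp (1.49 and 1.14) and Cnp (1.37 and 0.952), and Slc2a1 (2.35 and 1.54) and Erg (0.638 and 0.438). None of 6 microglial and none of 6 liver markers had one in either library. Among all protein-coding genes, 63.4% and 59.3% had a promoter peak in replicates 1 and 2. The excitatory and astrocyte markers were above that share, though only slightly in replicate 2. The inhibitory, oligodendrocyte and endothelial markers were below it, so these counts do not by themselves identify cortex.

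The sequences below show the accessible elements on which the results turn, all on the plus strand of mm10, while Nfib, Nfic and Nfix are transcribed from the minus strand. Capitals mark bases that lay in a footprint of both libraries. The first set holds, for each gene, the tallest peak found in both libraries that lay over 1000 bp from every annotated start and outside UTRs. They are an intronic element of Nfia (chr4:97868941-97869160), an intronic element of Nfib (chr4:82513141-82513440, the 300 bp common to both libraries' peaks), an intronic element of Nfic (chr10:81432921-81433180) and an element upstream of Nfix (chr8:84810941-84811180). The Nfib and Nfic elements are intronic only to the transcript with the most 5' start (212 and 207). They lie upstream of all other annotated starts of their gene, and those most 5' starts had no strict peak in either library.
Nfia intronic element: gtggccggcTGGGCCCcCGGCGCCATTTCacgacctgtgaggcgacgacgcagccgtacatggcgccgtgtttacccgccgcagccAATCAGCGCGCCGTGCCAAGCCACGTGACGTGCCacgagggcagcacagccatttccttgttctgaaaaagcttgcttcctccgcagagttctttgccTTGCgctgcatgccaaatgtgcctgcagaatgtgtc
Nfib intronic element: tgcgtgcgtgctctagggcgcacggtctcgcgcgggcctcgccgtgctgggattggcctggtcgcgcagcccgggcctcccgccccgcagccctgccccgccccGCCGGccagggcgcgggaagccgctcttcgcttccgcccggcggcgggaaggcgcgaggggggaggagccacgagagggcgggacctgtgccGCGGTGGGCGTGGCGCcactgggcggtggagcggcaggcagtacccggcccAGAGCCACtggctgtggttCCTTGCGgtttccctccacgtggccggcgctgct
Nfic intronic element: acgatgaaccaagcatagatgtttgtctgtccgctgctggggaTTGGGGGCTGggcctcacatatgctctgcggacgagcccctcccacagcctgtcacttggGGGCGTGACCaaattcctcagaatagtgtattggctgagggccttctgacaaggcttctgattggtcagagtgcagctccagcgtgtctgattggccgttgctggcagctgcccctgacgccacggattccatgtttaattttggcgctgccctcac
Nfix upstream element: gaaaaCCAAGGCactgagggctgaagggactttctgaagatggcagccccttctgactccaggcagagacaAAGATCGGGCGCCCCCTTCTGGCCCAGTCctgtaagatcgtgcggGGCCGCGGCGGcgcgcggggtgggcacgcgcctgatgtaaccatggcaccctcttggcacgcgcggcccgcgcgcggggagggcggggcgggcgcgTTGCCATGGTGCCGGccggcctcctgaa

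The second set holds the tallest shared promoter peak outside UTRs of each gene that had one, namely Nfia (chr4:97772181-97772460), Nfib (chr4:82506394-82506580) and Nfic (chr10:81407621-81407860).
Nfia promoter peak: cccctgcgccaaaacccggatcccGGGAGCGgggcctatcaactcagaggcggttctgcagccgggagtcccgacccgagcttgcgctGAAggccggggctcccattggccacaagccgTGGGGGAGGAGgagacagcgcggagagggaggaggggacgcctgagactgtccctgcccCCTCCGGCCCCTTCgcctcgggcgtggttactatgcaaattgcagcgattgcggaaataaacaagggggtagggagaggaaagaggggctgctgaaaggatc
Nfib promoter peak: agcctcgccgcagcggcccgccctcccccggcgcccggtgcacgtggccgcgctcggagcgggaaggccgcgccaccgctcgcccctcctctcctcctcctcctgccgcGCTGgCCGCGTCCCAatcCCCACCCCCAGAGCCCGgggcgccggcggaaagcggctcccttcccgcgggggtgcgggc
Nfic promoter peak: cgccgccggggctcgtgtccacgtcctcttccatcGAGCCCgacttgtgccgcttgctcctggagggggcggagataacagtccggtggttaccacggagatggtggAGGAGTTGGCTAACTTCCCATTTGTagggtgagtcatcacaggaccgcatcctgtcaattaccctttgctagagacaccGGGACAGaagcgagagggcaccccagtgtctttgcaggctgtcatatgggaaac

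The Nfia intronic element holds TTGGCA on its minus strand at 2 places, read as TGCCAA in the printed strand. The first, which begins at position 100 counted from the 5' end of the printed sequence, lay with all 6 of its bases inside a footprint of both libraries, and the second, at position 195, had 0 bases in one. The stretch of capitals around the first also held all 6 bases of a CANNTG site (E-box) at position 108. That stretch therefore cannot be assigned to NFI by sequence alone. The Nfix upstream element holds TTGGCA at position 170, with 0 of its bases in a shared footprint. The printed elements of Nfib and Nfic hold no TTGGCA in these windows. The shorter arm TTGGC lay in the Nfic promoter peak at position 113, with all 5 of its bases in a footprint of both libraries. The same stretch of capitals held all 6 bases of a CANNTG site at position 126, so it cannot be assigned to NFI by sequence alone either. The other TTGGC arms in the printed Nfib and Nfic elements had 0 bases in a shared footprint. The Nfib elements were the richest in G and C, with 77.3% in the intronic element and 81.3% in the promoter peak, against 62.3% and 65.4% for Nfia and 56.9% and 58.8% for Nfic. The Nfib intronic element holds 5 copies of GGGCGG, the box of SP and KLF factors, and none of them lay in a shared footprint. GGGCGG was found in the 200 bp around the centre of 18.8% and 18.6% of all strict peaks in replicates 1 and 2.

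Promoter peaks were found at all 4 members in replicate 1 and at 3 of 4 in replicate 2, where Nfix had none. Of all protein-coding genes, 63.4% had one in replicate 1, 59.3% in replicate 2 and 58.7% in both, so having one is not particular to the family. At least 2 promoter peaks in each library were found at Nfia, Nfib and Nfic and at 27.3% of coding genes. Genes with many annotated starts have more chances to hold one, and the 4 members have 7 or 8 distinct starts each. Over the 31 distinct starts of the family, 20 had a strict peak within 1000 bp in replicate 1 and 10 in replicate 2. The tallest promoter peak was 4.36 and 3.27 at Nfia, 1.56 and 1.36 at Nfib, 2.43 and 1.67 at Nfic, and 1.93 in replicate 1 alone at Nfix. Over all coding genes with a promoter peak the median was 3.02 in replicate 1 and 2.17 in replicate 2. Nfia stood above these medians, with a tallest promoter peak higher than that of 71.0% and 76.6% of such genes, while Nfib (22.7% and 27.8%) and Nfic (39.5% and 36.7%) stood below them, as did Nfix in replicate 1 (30.4%).

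**Figure D1:**
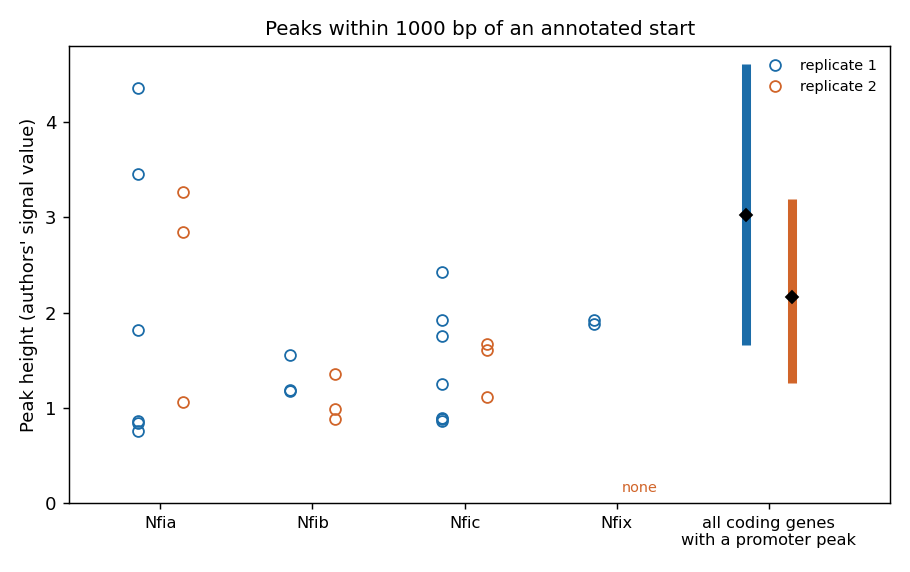
Height of each strict peak within 1000 bp of an annotated start of Nfia, Nfib, Nfic and Nfix in replicate 1 (blue circles) and replicate 2 (orange circles), with the median (diamond) and the range from the 25th to the 75th percentile (bar) of the tallest promoter peak over all coding genes that have one. Only the Nfia peaks of 4.36 and 3.45 in replicate 1 and of 3.27 and 2.85 in replicate 2 lie above the medians of 3.02 and 2.17, and Nfix has none in replicate 2.

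Nfia lies on the plus strand of chromosome 4 (chr4:97772734-98118874, 346.1 kb). Its promoter peaks lay at 3 places. The most 5' start, that of transcript 208 at position 97772734, had a peak at chr4:97772181-97772460 of 4.36 in replicate 1 and 2.85 in replicate 2, and one at chr4:97773281-97773500 of 3.45 and 3.27. Both peaks were found in both libraries, and the second was nearly as tall in replicate 2 as in replicate 1. The 5 starts of transcripts 201 to 205, between positions 97777608 and 97777834, had 3 low peaks within 1000 bp in replicate 1, of 0.764, 0.864 and 0.839, and none in replicate 2. In replicate 2 the lowest false discovery rate per base there was 0.0101, and 1 peak of the broader set lay near these starts, so some bases were called accessible there, but none in a strict peak. The last 2 of the 3 low peaks also lay within 1000 bp of a start of the coding gene E130114P18Rik, and distance does not tell the promoters apart. The internal start of the noncoding transcript 206, at position 97911033, had a peak of 1.82 in replicate 1 and 1.07 in replicate 2, and that of transcript 207, at position 97880119, had no strict peak in either library. RefSeq (GRCm38.p6) places another Nfia start at position 97581943, 190791 bp from the nearest GENCODE start, and no strict peak lay within 1000 bp of it.

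The tallest peak of Nfia in replicate 1 lay in an intron, and in replicate 2 the promoter peak of 3.27 was slightly taller. The intronic peak printed above stood at 5.61 in replicate 1 and 3.13 in replicate 2, 11068 bp from the nearest start, and was higher than 98.0% of the peaks of replicate 1. It held 5 footprints in replicate 1. Upstream of the gene, chr4:97751061-97751240 had 2.58 and 1.71 and chr4:97745901-97746100 had 2.00 and 1.01. Lower shared intronic peaks lay at chr4:98004421-98004620 (1.10 and 0.983) and chr4:97894348-97894526 (1.10 and 0.829). The tallest peak without a counterpart was the upstream chr4:97757361-97757840 in replicate 1, at 1.70 and within 1000 bp of a start of Gm12676. In replicate 2 it was an intronic peak of 0.691 at chr4:97950521-97950582.

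Nfib lies on the minus strand of chromosome 4 (chr4:82290173-82705750, 415.6 kb), with no other coding gene within 50000 bp. Its promoter peaks all lay in 1 cluster, between positions 82505768 and 82506580 in replicate 1 and between 82505741 and 82506620 in replicate 2, within 1000 bp of 6 of its 8 distinct starts. In replicate 1 the 3 peaks had heights of 1.19, 1.18 and 1.56, and in replicate 2 the 3 peaks had 0.891, 0.991 and 1.36. All 3 were found in both libraries. The most 5' start, that of transcript 212 at position 82705750, had no strict peak in either library, and neither had that of transcript 211 at position 82499316. The tallest peaks were intronic only when counted from the start of transcript 212, and lay upstream of all other annotated starts. The element printed above, 7502 bp from the nearest start, had 2.97 in replicate 1 and 2.23 in replicate 2. It was followed by chr4:82542221-82542420 (2.48 and 2.02) and chr4:82619601-82620020 (1.86 and 1.61, with a TTGGCA site and 8 footprints in replicate 1). At chr4:82494998-82495060 replicate 2 was slightly higher (1.21 and 1.34). The peak at chr4:82294241-82294359, in an exon at the 3' end that overlaps a UTR, was also higher in replicate 2, at 1.71 against 0.795 in replicate 1. Of the 32 peaks of replicate 1, 27 lay in introns, as did 16 of the 21 of replicate 2. In each library most of these, like the tallest, were intronic only to transcript 212 and lay upstream of all other annotated starts.

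Replicate 1 had a run of very low peaks in Nfib that replicate 2 lacked. The 7 peaks lay within 5563 bp (chr4:82306838-82312400) and had heights from 0.125 to 0.225, all in the lowest 5% of that library's peaks (0.338 or lower). No base under any of them was listed under a false discovery rate of 0.05 in replicate 2. The tallest peak without a counterpart was chr4:82512832-82513040 in replicate 1, at 1.70, next to the tallest shared element, and chr4:82298824-82298882 in replicate 2, at 0.630.

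Nfic lies on the minus strand of chromosome 10 (chr10:81396186-81455635, 59.5 kb), and 12 other coding genes lie in or reach into its flanks. Of its promoter peaks, 7 were in replicate 1 and 3 in replicate 2. The start of transcript 205, at position 81407641, had the tallest, of 2.43 and 1.67. Near the start of transcript 204, at position 81431005, the tallest peak had 1.92 and 1.60, and a peak over the start in replicate 1 had 1.76, with a counterpart of 1.11 that began just beside the start in replicate 2. The start cluster of transcripts 201 to 203, between positions 81427114 and 81427187, had peaks of 1.26 and 0.901 in replicate 1 only, and the lowest false discovery rate per base there in replicate 2 was 0.0355. The most 5' start, that of transcript 207 at position 81455635, had no strict peak in either library.

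Within Nfic, away from its starts, the element printed above was the tallest, at 4.29 and 3.09. It lay 2046 bp upstream of the nearest start, that of transcript 204. The next were chr10:81450241-81450400 (2.43 and 1.97) and chr10:81416886-81417200 (2.37 and 1.77), which lies within 1000 bp of the start of the microRNA gene Mir1191b. In the upstream flank chr10:81502761-81502920 had 3.24 and 2.00, and chr10:81469324-81469578 had 1.84 and 1.63. The tallest peaks of the region lay at the starts of neighbours, with 9.16 and 5.89 at Fzr1, an activator of the anaphase-promoting complex, 8.13 and 5.30 at Ncln and 7.27 and 4.87 at Hmg20b. Of the 39 peaks of replicate 1, 13 lay within 1000 bp of a start of another coding gene, as did 9 of the 19 of replicate 2. The tallest peak without a counterpart was chr10:81350821-81350980 in replicate 1, at 3.60 and near the start of Hmg20b, and chr10:81470636-81470749 in replicate 2, at 1.08 and near a start of Celf5. Of the 39 peaks of replicate 1, 6 were in the lowest 5% of that library by height, and of those of replicate 2, 0 were.

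Nfix lies on the minus strand of chromosome 8 (chr8:84699876-84800344, 100.5 kb), with 9 other coding genes in its region. Of its 8 distinct starts, 2 had a strict peak within 1000 bp in replicate 1 and 0 in replicate 2. In replicate 1, chr8:84773986-84774096 had 1.93 and chr8:84775278-84775355 had 1.88, near the starts of transcripts 203 and 204. In replicate 2 no strict peak lay near any of the 8 starts, although the broader set had peaks near 2 of them, and the lowest false discovery rates per base under the replicate 1 peaks were 0.00894 and 0.00336. The 3 most 5' starts, between positions 84800024 and 84800344, had no strict peak in either library and no base listed under 0.05 in replicate 2. The gene body held 5 peaks in replicate 1 and 4 in replicate 2. The tallest inside the gene was chr8:84709301-84709460, with 3.14 and 2.00 and a TTGGCA site, 1163 bp from the start of a noncoding transcript.

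The tall peaks around Nfix lay outside the gene. Upstream of its 5' end stood the element printed above, with 4.93 in replicate 1 and 2.75 in replicate 2, 10717 bp from the nearest Nfix start. With chr8:84813141-84813360 (2.37 and 1.55) and chr8:84815641-84815840 (5.74 and 2.73) it formed a group of 3 shared peaks in the upstream flank, the last of them in the neighbour Dand5, an antagonist of Nodal signalling. Downstream, chr8:84663981-84664200 had 5.32 and 3.52. It lay within 1000 bp of a start of Gm26664, which is not among the coding genes, and over 1000 bp from the starts of the neighbouring immediate early gene Ier2. The peaks at the starts of the neighbours Calr (7.43 and 5.57), Trmt1 (4.83 and 2.90) and Ier2 (4.02 and 3.04) were all taller than any Nfix promoter peak. The tallest peak of replicate 2 without a counterpart was chr8:84699891-84700063, at 0.914 and within 1000 bp of a start of Trmt1.

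**Figure D2:**
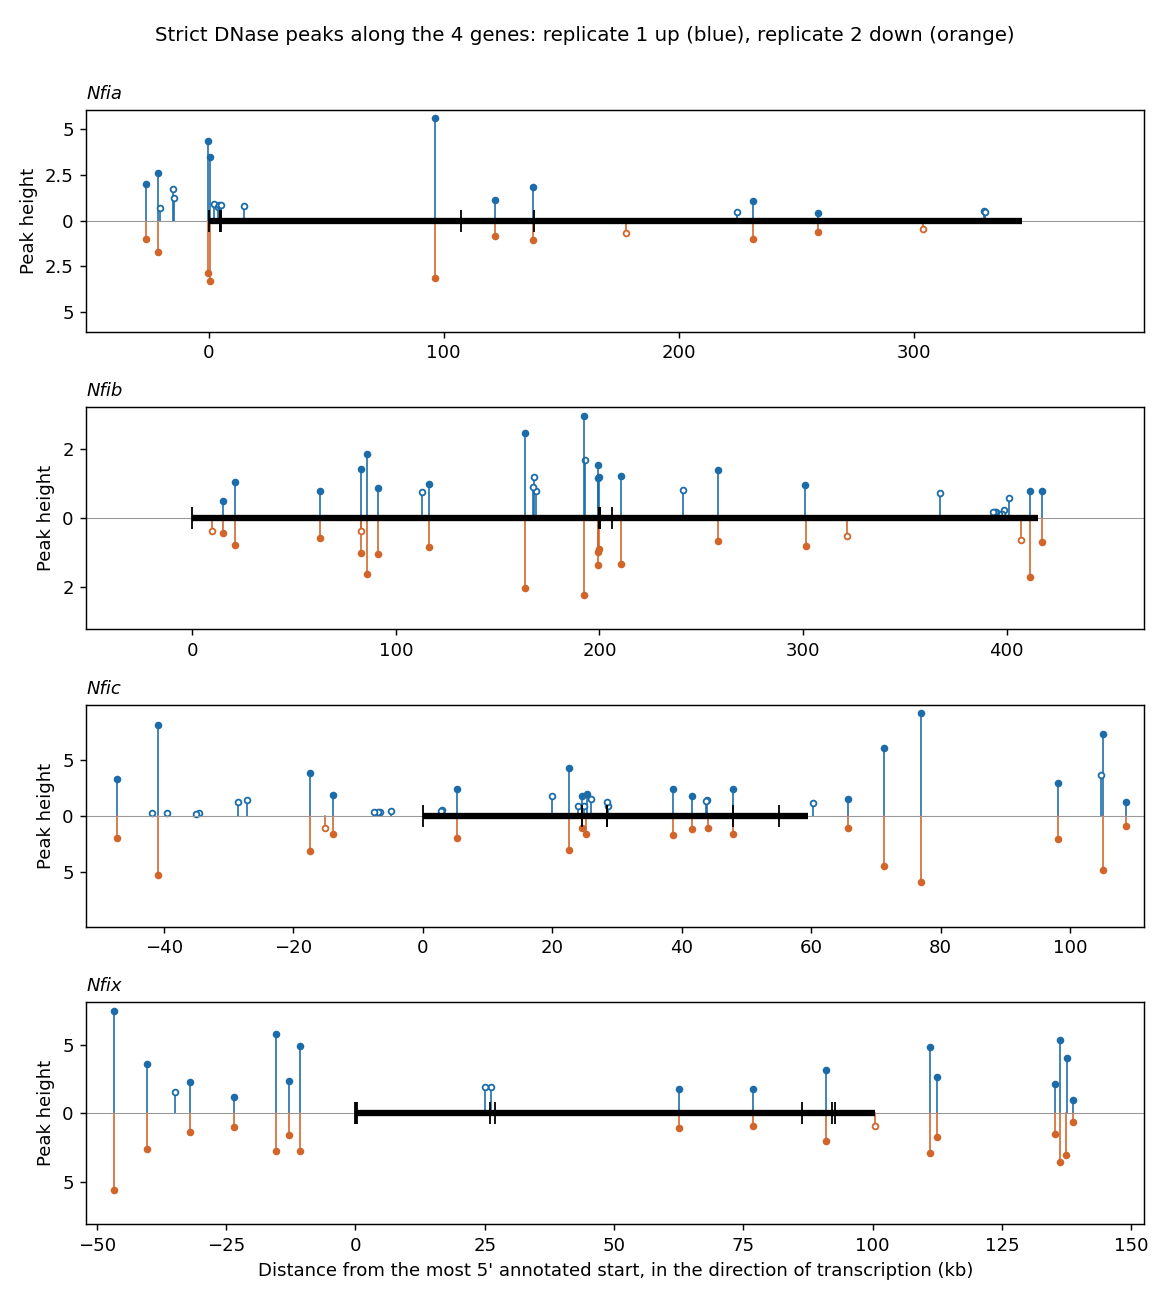
Strict peaks along each gene and its flanks of 50000 bp, drawn at their distance in kb from the most 5' annotated start, with peak height upwards for replicate 1 and downwards for replicate 2. The black bar is the gene, ticks on it are annotated starts, filled circles are peaks found in both libraries and open circles are peaks of 1 library. The tallest Nfib peak in both libraries (2.97 and 2.23) is intronic only to the transcript with the most 5' start. An intronic peak is the tallest of Nfia in replicate 1 (5.61), while in replicate 2 the Nfia promoter peak of 3.27 exceeds the intronic 3.13. The tallest peaks around Nfic (9.16 and 5.89) and Nfix (7.43 and 5.57) lie in the flanks.

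Counted over the gene body and its flanks, the members had 20, 32, 39 and 19 strict peaks in replicate 1 (Nfia, Nfib, Nfic and Nfix) and 11, 21, 19 and 17 in replicate 2. As means over the libraries these were 15.5 ± 6.36 peaks at Nfia, 26.5 ± 7.78 at Nfib, 29.0 ± 14.1 at Nfic and 18.0 ± 1.41 at Nfix (SD, n = 2), so by these SDs the order among the genes does not hold beyond the spread. The SDs include a difference between the libraries that had the same direction at all 4 genes. Within each library Nfib and Nfic had more peaks than Nfia and Nfix, while the order inside either pair changed between the libraries. The median coding gene had 8 and 6. Coding genes whose length was within 20% of the member's had medians of 15 and 13 for Nfia, 17 and 14 for Nfib, 9 and 7 for Nfic, and 10 and 8 for Nfix. Nfib, Nfic and Nfix were above the median of their like-length genes in both libraries, with more peaks than 89.2% and 77.1%, 99.7% and 98.6%, and 90.3% and 96.8% of them. Nfia was above it in replicate 1, with more than 66.9%, and below it in replicate 2, with more than 32.5%. With all peaks counted, Nfic had the densest peaks per 100 kb of region (24.5 and 11.9), followed by Nfix (9.48 and 8.48), Nfib (6.21 and 4.07) and Nfia (4.48 and 2.47). This order was the same in both libraries, but it includes peaks at starts of other coding genes. Without the peaks at starts of other coding genes, Nfia had 18 and 11, Nfib 32 and 21, Nfic 26 and 10, and Nfix 11 and 8. Over regions of 200.5 kb at Nfix and 515.6 kb at Nfib, these counts place Nfix below Nfib in density, only slightly so in replicate 2. Nfix in both libraries and Nfic in replicate 2 thus moved by over 1.5 times, and the medians of like-length genes were not treated in this way.

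**Figure D3:**
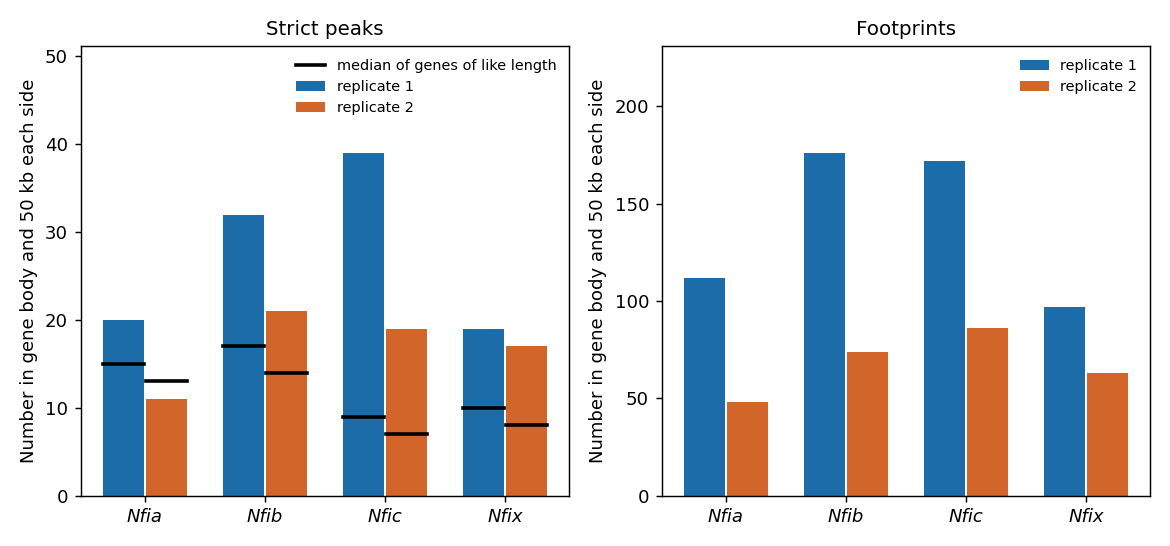
Number of strict peaks (left) and footprints (right) between 50000 bp upstream and 50000 bp downstream of each gene in replicate 1 (blue) and replicate 2 (orange), with the median number of peaks over coding genes of like length as a black line. The 3 genes Nfib, Nfic and Nfix lie above that line in both libraries, and Nfia lies above it in replicate 1 (20 against 15) and below it in replicate 2 (11 against 13).

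The libraries differed more in their number of peaks at Nfia and Nfic than over the whole genome, and less at Nfix. The ratio of replicate 1 to replicate 2 was 1.62 for the members' peaks together, 1.82 for Nfia, 1.52 for Nfib, 2.05 for Nfic and 1.12 for Nfix, against 1.22 for all strict peaks. The Nfib ratio rests on the run of 7 very low peaks in replicate 1. Without the lowest 5% of peaks of each library, a setting chosen after seeing the data, it was 1.19 (25 against 21), below the 1.22 of all remaining peaks, while the ratio was 1.82 at Nfia, 1.74 at Nfic and 1.12 at Nfix. Of the members' peaks, 60 of 110 in replicate 1 (54.5%, exact 95% interval 44.8% to 64.1%) and 60 of 68 in replicate 2 (88.2%, 78.1% to 94.8%) had a counterpart in the other library. Over all strict peaks these shares were 66.2% and 80.8%. Nfix had the highest share in replicate 1, at 16 of 19 (84.2%), and Nfia the lowest, at 9 of 20 (45.0%). The median ratio of replicate 1 to replicate 2 over the 60 shared peaks was 1.37, against 1.38 over all 60789 shared peaks. By gene it was 1.51 at Nfia, 1.20 at Nfib, 1.39 at Nfic and 1.52 at Nfix, all between the 10th and the 90th percentile of all shared peaks (0.931 and 1.83). That range is of single peaks, which a median over several peaks seldom leaves, so it cannot show whether a gene differs. Of the 4 peaks that were taller in replicate 2, 3 lay in Nfib and 1 in Nfia.

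**Figure D4:**
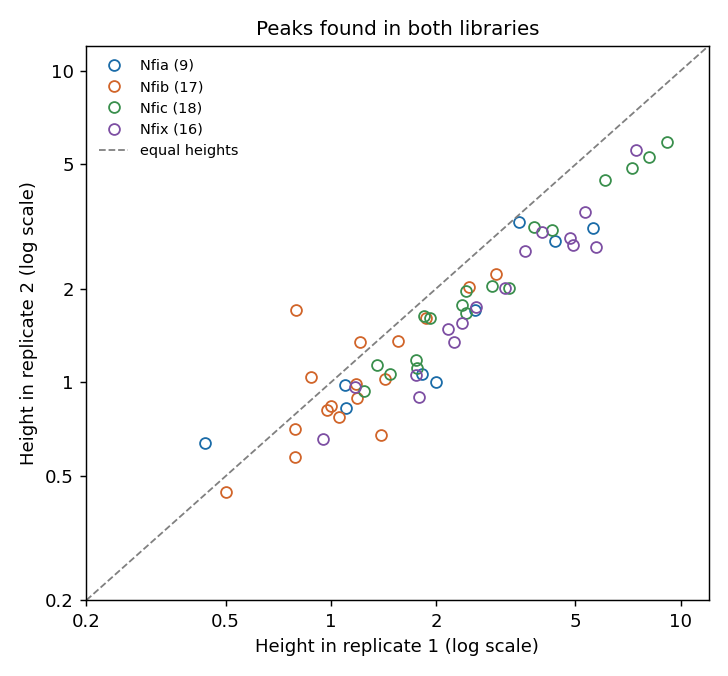
Height of each of the 60 shared peaks in replicate 1 (x axis, log scale) and replicate 2 (y axis, log scale), coloured by gene, with a dashed line of equal heights. Most circles lie below the line, at a median ratio of 1.37, and the 4 circles above it are 3 peaks of Nfib and 1 of Nfia.

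Footprints numbered 112 and 48 at Nfia, 176 and 74 at Nfib, 172 and 86 at Nfic, and 97 and 63 at Nfix in replicates 1 and 2. The median coding gene had 35 and 22. The members' footprints together were 2.05 times as many in replicate 1 as in replicate 2, against 1.63 over the whole genome. Many lay outside strict peaks, and those inside one numbered 68 and 25 at Nfia, 82 and 48 at Nfib, 107 and 60 at Nfic, and 59 and 50 at Nfix. Of the footprints of replicate 1, 24, 33, 65 and 41 overlapped one of replicate 2 at Nfia, Nfib, Nfic and Nfix. Their median width was 8 to 13 bp. A TTGGCA site lay in the footprint or its 5 bp margins in 5 of 112 and 3 of 48 footprints at Nfia (4.5% and 6.2%), 8 of 176 and 2 of 74 at Nfib (4.5% and 2.7%), 1 of 172 and 1 of 86 at Nfic (0.6% and 1.2%), and 2 of 97 and 1 of 63 at Nfix (2.1% and 1.6%). Over all footprints of the libraries the share was 2.09% and 2.15%.

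None of the members' strict peaks held the full NFI palindrome in the 200 bp around its centre, 0 of 110 in replicate 1 and 0 of 68 in replicate 2. By a limit of 3 counts this allows shares of up to 2.73% and 4.41%, and the exact 95% intervals reach 3.30% and 5.28%. Over all strict peaks it was found in 0.0697% and 0.0691%, so a count of 0 is near the background. A TTGGCA site was found in 22 of the 110 peaks of replicate 1 (exact 95% interval of the share 13.0% to 28.7%) and in 12 of the 68 of replicate 2 (17.6%, 9.47% to 28.8%), against 14.9% and 15.7% of all strict peaks, values inside both intervals. GGGCGG was found in 30 of the 110 peaks (27.3%, 19.2% to 36.6%) and in 23 of the 68 (33.8%, 22.8% to 46.3%), against 18.8% and 18.6% of all strict peaks, values below both intervals. The motifs of AP-1 (TGANTCA), CRE (TGACGTCA), a proneural E-box (CAGATG), the octamer (ATGCAAAT) and SOX (ACAAAG) were also searched. For each of them the share of all strict peaks lay inside both intervals. GGGCGG was thus the only searched motif whose intervals left that share out, and the intervals are not adjusted for the number of motifs. All these intervals treat peaks of 4 genes as independent, and the 60 shared peaks enter both libraries, so they are not separate evidence. Of the peaks, 23 of 110 and 18 of 68 lay within 1000 bp of a start of another coding gene. Whether GGGCGG was more frequent without them was not tested. The median share of G and C was 57.7% and 57.1% in the members' peaks and 52.4% and 51.1% in all peaks.

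The regions of the 4 genes held 5 full palindromes, all outside strict peaks. They are shown because they match the site that NFI dimers are known to bind, with the arms in capitals. Of them 3 lie in Nfia (chr4:97776506-97776520, chr4:97869259-97869273 and chr4:97876121-97876135), 1 in Nfib (chr4:82379280-82379294) and 1 in the downstream flank of Nfic (chr10:81382146-81382160). The cluster named in the first label holds the starts of transcripts 201 to 205, over 1000 bp from the site. It is main by annotated starts only, with low strict peaks in replicate 1 and none in replicate 2. Introns were not told apart, so a further intron means a place further along Nfia.
Nfia site near the main start cluster: TTGGCaatgtGCCAA
Nfia site beside the printed intronic element: TTGGCcagagGCCAA
Nfia site in a further intron: TTGGCaggtgGCCAA
Nfib site: TTGGCttggtGCCAA
Nfic site: TTGGCagcatGCCAA

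The Nfia site at chr4:97869259-97869273 lies 98 bp from the edge of the intronic Nfia peak printed above in replicate 1 and 78 bp from its edge in replicate 2, and was singled out after these values were seen. Its lowest false discovery rate per base was 5.65e-23 in replicate 1 and 1.57e-08 in replicate 2, so its bases were listed in both. It lay in no peak of the strict or the broader set of either library, and a footprint covered or touched it in replicate 1 and not in replicate 2. The Nfia site at chr4:97876121-97876135 was listed in replicate 1 alone, at 0.00823, also with 1 footprint. The other 3 were not among the listed bases of either library. The lowest distance of these 3 from a strict peak was 285 bp, for the Nfia site at chr4:97776506-97776520 in replicate 1.

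Genes around the family in its pathway were described by the same measures. Over all protein-coding genes, 63.4% and 59.3% had a promoter peak in replicates 1 and 2, with medians of 8 and 6 peaks in body and flanks. Of 6 genes known as background to act on Nfi genes in neural development, 5 had a promoter peak in replicate 1 and 4 in replicate 2, with medians of 12 and 7.5 peaks in body and flanks. Rbpj, the DNA-binding partner of Notch, had the tallest (6.63 and 4.45), followed by Sox9, a factor of glial fate (2.11 and 1.51), and Notch1 had none in either library. Of 14 genes reported as NFI targets in neural cells, 12 had one in each library, with medians of 8.5 and 6.5 peaks. Ezh2, the methyltransferase of Polycomb complex PRC2 (4.87 and 3.17), and Hes1, a Notch effector (3.24 and 2.28), had the tallest, while Aqp4, the astrocyte water channel, and Gabra6, a GABA receptor subunit of cerebellar granule cells, had none. Gfap, the astrocyte filament gene, had 2.02 and 1.14.

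Other transcription factor families were set beside NFI by the same counts, without matching for gene length or neighbouring genes. The shares over all protein-coding genes were again 63.4% and 59.3%, and the medians 8 and 6 peaks. A promoter peak was found at 4 and 4 of 4 MEF2 genes, 8 and 5 of 8 deep layer factors, 3 and 3 of 3 E proteins, and 3 and 2 of 4 TEAD genes in replicates 1 and 2. The median number of peaks in body and flanks was 26 and 18 for NFI, 16.5 and 16.5 for MEF2, 14 and 7.5 for deep layer factors, 16 and 11 for E proteins, and 11 and 9 for TEAD. By the mean of the libraries, the tallest promoter peaks were at Mef2b (6.07 and 3.21) and Mef2a (4.81 and 3.11), at Tle4 (9.91 and 7.03) and Bcl11b (2.35 and 1.58), at Tcf3 (5.24 and 4.19) and Tcf4 (4.11 and 2.80), and at Tead1 (2.86 and 2.05) and Tead2 (1.09 and 0.514), and Tead3 had none. The Mef2b promoter peaks also lay at starts of the coding genes Borcs8 and Rfxank, and distance does not tell these promoters apart. Among the factors listed here, a promoter peak in replicate 1 and none in replicate 2, as at Nfix, was also found at Tbr1 (2.41 in replicate 1), Sox5 (1.33), Fezf2 (0.845), Pou3f2 (1.73) and Tead4 (0.720), genes named after their values were seen. Over body and flanks Tbr1 (15 and 0), Pou3f2 (24 and 0) and Fezf2 (13 and 2) had few or no peaks in replicate 2, unlike Nfix (19 and 17).

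By their 8 values of peaks, promoter peaks, tallest promoter peak and footprints in both libraries, the genes most like Nfia were Stx4a, Cfl1 and Dip2b, with distances of 0.411, 0.432 and 0.446. Those most like Nfib were Rtn2, P3h3 and Atrnl1 (0.355, 0.400 and 0.431), those most like Nfic included Srcin1 and Ptprg (0.475 and 0.493), and those most like Nfix were Tmem151b, Tmem151a and Hpd (0.168, 0.413 and 0.421). The members were not each other's nearest genes. The closest pair among them was Nfib and Nfic, at a distance of 1.26, and the farthest was Nfia and Nfix, at 3.79. Ranked by distance over the 21938 coding genes, Nfib was at place 165 from Nfic, and Nfic at place 336 from Nfib. Nfix was at place 12224 from Nfia.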

How the data were processed

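Both DNase-seq libraries belong to 1 group (right cerebral cortex, male B6CASTF1/J, 2 months) and carry the replicate numbers of the labels. The labels give both libraries the same donor record and number the animals 5 (replicate 1) and 6 (replicate 2). Per the labels, the deposited files refer to mm10 and each belongs to 1 library. For the aligner, the callers of peaks and footprints and their settings, the sources used here give nothing. The height of a peak is a signal value deposited by the authors. The authors also deposited q-values, a false discovery rate for each base that is under 0.05. The footprint files deposited by the authors hold positions and a constant of 0.01, read as a p-value threshold, so footprints had no score of their own. The sequencing depth is unknown, and with it the precision of a single peak, and intervals on shares cover counting error only.

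The smaller peak set of each library (strict peaks) was used with genes of GENCODE M21 and the GRCm38.p6 sequence. A promoter peak lay within 1000 bp of any transcript start of a gene. A peak or footprint was counted in the gene body plus 50000 bp on each side by its centre. Peaks of both libraries were shared where they had at least 1 bp in common. Motifs were searched on both strands in the 200 bp around each peak centre. Motif searches in footprints took in 5 further bp at either end. Exact Clopper-Pearson intervals are at the 95% level. Likeness between genes was the Euclidean distance over 8 values (peaks, promoter peaks, tallest promoter peak and footprints in each library, as log2(value + 1) divided by the SD over protein-coding genes).

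The members and the gene lists were chosen with earlier results of these data known. The text names all 4 members, their promoter peaks, the 5 tallest shared peaks of each away from starts of coding genes, the tallest peak of each library without a counterpart, the 2 members of each list with the tallest promoter peaks by the mean of the libraries and up to 2 with none, and the 3 genes most like each member. Some genes selected by this rule are left unreported. With 1 group of 2 libraries no test between groups was possible. Promoter assignment, region counts, peak overlap and palindrome matching were tested on simulated data, and all 7 checks recovered what was planted. Python 3.11.15, numpy 2.4.6 and matplotlib 3.10.9 were used. The alternatives covered the promoter window, the flank, the peak set, the overlap rule, the motif, the footprint set and each library left out.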

Additional observations from a re-analysis of the deposited data

How the results depend on the processing

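Of 35 alternatives that kept both libraries, for counts, shares and heights over the NFI genes, 27 stayed within 1.5 times a count or within the SD of a value, and 8 did not. The values here are means of the libraries. Strict peaks around the members numbered 89.0, and 53.5 in the gene bodies alone and 170.5 with the broader peak set. With each library left out they ranged from 68.0 to 110.0. Footprints numbered 414.0, and 235.5 when only those inside strict peaks counted and 166.5 when only those of both libraries counted. With each library left out footprints ranged from 271.0 to 557.0. The share of peaks with the full NFI palindrome was 0, and 1.19% with 1 mismatch and 18.8% for TTGGCA alone. With a promoter window of 2500 bp, Nfix had a promoter peak in both libraries, with a mean height of 2.57 in place of 0.964, and Nfic had 3.69 in place of 2.05. With each library left out, the share of shared peaks ranged from 54.5% to 88.2%, members with a promoter peak from 3.0 to 4.0, and the tallest promoter peak from 3.27 to 4.36 at Nfia, 1.36 to 1.56 at Nfib, 1.67 to 2.43 at Nfic and 0 to 1.93 at Nfix. Each of the 8 changes which peaks, footprints or letters are counted. For shares and heights, leaving out 1 of 2 libraries cannot move the mean by more than the SD, so these ranges do not show stability. Leaving out the lowest 5% of peaks and those at starts of other genes were chosen after seeing the data. Neither moved a total over the family past these limits, but without peaks at starts of other genes the mean count fell from 29.0 to 18.0 at Nfic and from 18.0 to 9.5 at Nfix. No paired analysis was possible because there was 1 group. The sequencing depth is unknown, and whether the Nfix promoter peaks absent from replicate 2 were missed at its depth was not tested.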
